A study of Homo sapiens with 5 samples.

Results

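The genes described here were those that stood higher a month after a DNA methylation inhibitor was withdrawn, but not while it was present. They were chosen by their measured values in 1 table: RefSeq messenger RNA entries (identifiers starting NM_) with at least 1 FPKM in control cells, at least 5 FPKM and 3 times the control value in recovery, and at most 1.5 times the control value in treated cells. FPKM scales fragment counts by transcript length and by library size, so levels of different genes can be set side by side. Where 3 FPKM values stand together, they are control, treated and recovery in that order. The rule was met by 20 of 16862 messenger RNA entries, out of 20220 RefSeq entries in all. Because these values chose the genes, their levels and ratios are a description, and no test is attached to them.

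The cells were HEK 293T, an established human embryonic kidney line with the SV40 large T antigen. There were 3 groups: 2 control libraries grown with no drug, 2 libraries from cells given 1.0 µM 5-aza-CdR (5-aza-2'-deoxycytidine) for 3 days, and 1 recovery library from treated cells that stayed in culture without drug for 30 days more. The authors deposited 1 value per group, so no spread between libraries can be shown, and a difference between recovery and control also holds whatever is particular to that 1 library. The labels do not say at what time the control cells were collected, so time in culture and past exposure cannot be told apart. In bulk RNA, a change in the number of cells that express a gene cannot be told apart from a change in RNA per cell. Of 8 genes often reported in HEK cells, the neurofilament gene NEFL was clearly present (28.9, 22.2 and 30.6 FPKM), while the kidney regulator PAX2 was listed at 0 in control and recovery. Markers of other cells stayed low: summed over 6 fibroblast genes the level was 8.54, 5.78 and 12.3 FPKM with DCN at 0 throughout, over 8 blood genes 0.317, 8.61 and 4.40 FPKM with HBB and CD3E at 0 throughout, and over 6 endothelial genes 0.802, 2.57 and 2.08 FPKM with CDH5 at 0 throughout. Of 5 epithelial genes KRT18 and KRT19 were the main ones, with a sum of 263, 519 and 271 FPKM.

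5-aza-CdR is a cytidine analogue. Once built into DNA it traps DNA methyltransferases, and methylation at CpG dinucleotides is then lost as cells divide. Methylation of a CpG-rich promoter is known to go with silencing, and a silenced gene may come on after the drug. After withdrawal, methyltransferases are made again and methylation can return. A gene first seen higher after withdrawal therefore differs from the pattern usually looked for, in which expression comes on with the drug.

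Start-site sequences are shown because CpG dinucleotides are where methylation is lost with this drug. RefSeq's window from 250 bases before to 50 bases after the start was available for 14 of the 20 genes, of which 10 have 1 listed window; the first listed window was used for each. The 2 windows with the lowest and the 2 with the highest ratio of observed to expected CpG are printed 5′ to 3′ on the gene's strand, with every CpG in capitals, from GRCh38.p14: DDR2 (chr1:162630613-162630912, plus strand), BST2 (chr19:17405581-17405880, minus strand), DGCR6 (chr22:18906070-18906369, plus strand) and NRN1 (chr6:6003976-6004275, minus strand).
DDR2: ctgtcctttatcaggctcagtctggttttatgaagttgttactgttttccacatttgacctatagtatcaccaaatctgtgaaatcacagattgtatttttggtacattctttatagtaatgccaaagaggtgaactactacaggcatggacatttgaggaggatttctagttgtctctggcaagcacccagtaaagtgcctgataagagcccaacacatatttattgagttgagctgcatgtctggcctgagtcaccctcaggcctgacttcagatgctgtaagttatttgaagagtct
BST2: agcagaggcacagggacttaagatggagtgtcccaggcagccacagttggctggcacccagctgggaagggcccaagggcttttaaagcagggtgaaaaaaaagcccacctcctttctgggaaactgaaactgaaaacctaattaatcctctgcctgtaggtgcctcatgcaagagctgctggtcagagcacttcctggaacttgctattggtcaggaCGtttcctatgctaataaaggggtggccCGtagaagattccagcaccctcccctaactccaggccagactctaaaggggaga
DGCR6: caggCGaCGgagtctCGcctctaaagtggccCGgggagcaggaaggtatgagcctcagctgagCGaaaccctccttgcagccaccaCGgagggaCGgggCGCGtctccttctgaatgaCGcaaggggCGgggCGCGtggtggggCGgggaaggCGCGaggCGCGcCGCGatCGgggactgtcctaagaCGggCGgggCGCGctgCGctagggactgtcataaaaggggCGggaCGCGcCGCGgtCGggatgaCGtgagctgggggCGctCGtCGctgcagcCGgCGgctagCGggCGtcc
NRN1: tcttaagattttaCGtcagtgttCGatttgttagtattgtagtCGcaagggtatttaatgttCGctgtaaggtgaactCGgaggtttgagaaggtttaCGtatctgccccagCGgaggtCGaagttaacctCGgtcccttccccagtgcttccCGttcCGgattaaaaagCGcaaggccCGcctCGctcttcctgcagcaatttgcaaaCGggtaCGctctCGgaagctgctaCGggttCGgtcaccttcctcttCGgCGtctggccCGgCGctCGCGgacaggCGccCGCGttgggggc

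The DDR2 window holds 0 CpG and the BST2 window 2, while the NRN1 window holds 28 and the DGCR6 window 40. The observed over expected CpG ratio (the CpG count times the window's length, divided by the product of its C and G counts) was 0 for DDR2, 0.10 for BST2, 1.10 for DGCR6 and 1.21 for NRN1. Over the 14 windows the median ratio was 0.62, against 0.85 over 8544 messenger RNA entries at 1 FPKM or more in control and 0.58 over all 27305 genes with a window. The 14 genes fall apart into 5 with a ratio under 0.2 (DDR2, BST2, C19orf81, GLYCTK and ANTXR2) and 9 at or above 0.6. Under 0.2 lay 2.98% of the expressed entries and 22.2% of all genes. DDR2 has 3 listed windows and ANTXR2 has 2. With the CpG-richest window of each gene, a choice made after seeing the data, DDR2 stood at 0.36 and ANTXR2 at 0.61, and 3 of 14 genes remained under 0.2 (21.4%), against 1.33% of expressed entries and 20.6% of all genes. The deposited table does not say which start was used in these cells. Windows were joined to genes by symbol and not by position, so a window need not lie at the start of the measured entry.

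**Figure D1:**
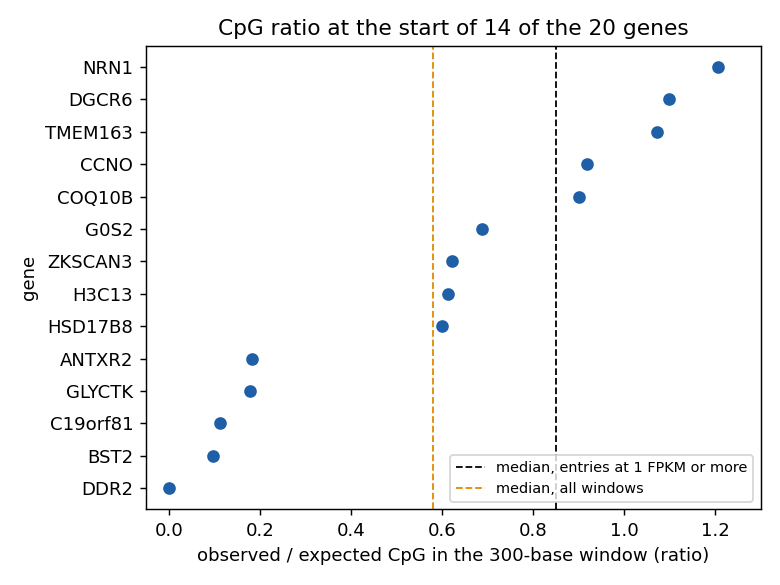
Observed over expected CpG (x axis, a ratio) in the 300-base window around the first listed start of 14 of the 20 genes (y axis). Dashed lines mark the median over expressed entries (0.85) and over all genes (0.58); 5 genes lie under 0.2 and the rest at 0.6 or above.

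Short motifs were searched in the same windows on both strands. TATAAA was in 2 of 14 windows (DDR2 and H3C13), 14.3%, against 5.35% of expressed entries and 12.0% of all genes. GGGCGG was in 6 (42.9%), against 71.9% of expressed entries and 44.6% of all genes. CCAAT was in 5 (35.7%; 37.5% and 35.7%), TGACG in 4 (28.6%; 35.1% and 25.0%) and CACGTG in 0 (10.3% and 7.43%), with expressed entries before all genes in each pair. GAAACTGA, the core of the element through which interferon acts, was searched after the BST2 window had been read. It was in that window alone of the 14, and in 1.76% of expressed entries' and 1.95% of all genes' windows. These are matches of letters and do not show binding.

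Recovery values were 3.05 to 53.0 times control over the 20 genes, with a median of 3.49 times. Of 10433 messenger RNA entries with at least 1 FPKM in control, 230 (2.2%) reached 5 FPKM and 3 times control in recovery. Of those 230, treated cells stood at 3 times control or more in 131, between 1.5 and 3 times in 79, and at 1.5 times or less in the 20. The same rule with the treated and recovery groups exchanged was met by 41 entries. Its mirror for genes lower only in recovery (control at 5 FPKM or more, recovery at 1 FPKM or more and at least 3-fold below control, treated at most 1.5-fold below) was met by 24. The authors' deposited table called 1 of the 20 genes higher in recovery (q under 0.05), where 4 of the 10433 entries (0.0383%) were; the rule used that same contrast, so nothing is read from this count. The q-values of the other 19 in recovery, again from the authors' deposited table, ran from 0.322 to 0.941.

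**Figure D2:**
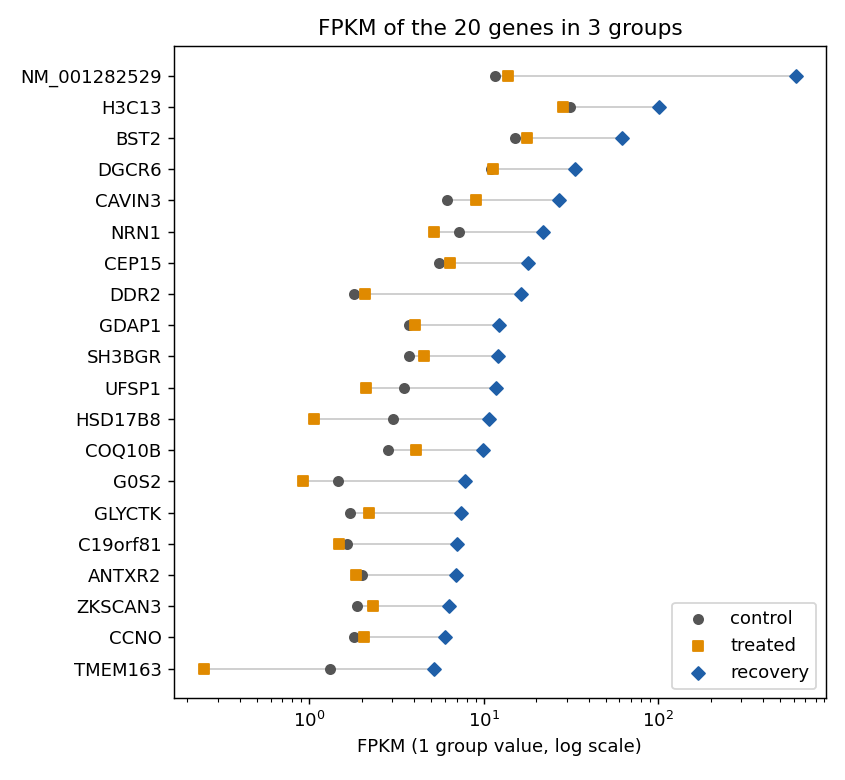
FPKM (x axis, log scale, 1 group value each) of the 20 genes (y axis) in control (grey circles), treated (orange squares) and recovery (blue diamonds). Control and treated values lie close together for most genes, with TMEM163 and HSD17B8 lower in treated cells; recovery values run from 5.20 FPKM for TMEM163 to 617 FPKM for the entry NM_001282529.

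**Figure D3:**
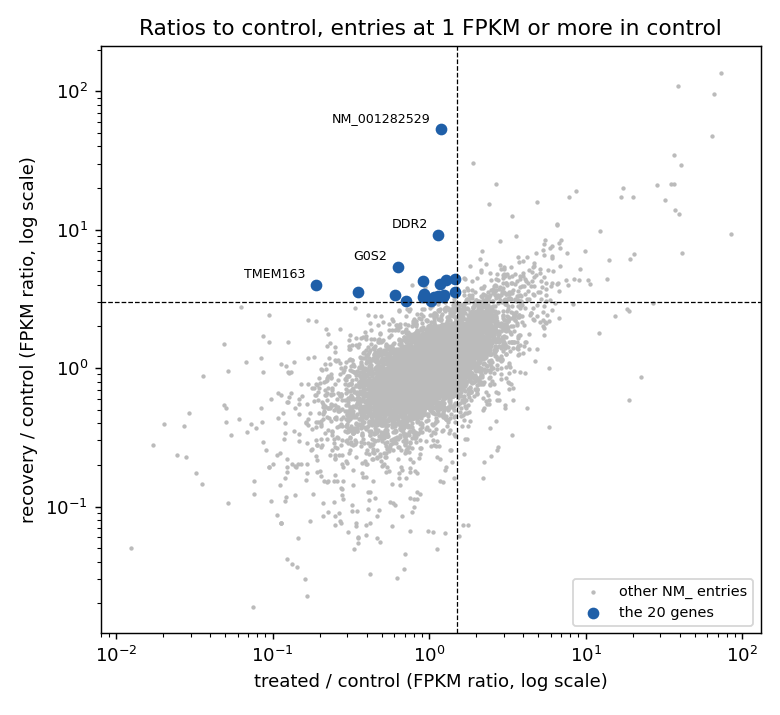
Ratio of treated to control (x axis, log scale) against ratio of recovery to control (y axis, log scale) for messenger RNA entries at 1 FPKM or more in control and above 0 in both other groups. Dashed lines mark 1.5 and 3; the 20 genes are blue, all but 2 of them lie under 6-fold on the y axis, and both axes share the control values.

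The largest ratio belonged to an entry to which no gene symbol was matched. NM_001282529 (chromosome 9, 33921691 to 34048947, hg19) was at 11.7 FPKM without drug, 13.9 FPKM with drug and 617 FPKM after recovery, 53.0 times control (q = 0.0147 in the authors' deposited table). Control and treated values were alike, and recovery was the 1 group that stood apart. Its identifier was not matched in the RefSeq gene table, and it lies between the entries of UBE2R2, a ubiquitin-conjugating enzyme gene 1290 bases away, and DCAF12. UBE2R2 was at 21.4, 12.9 and 10.8 FPKM and DCAF12 at 14.7, 21.4 and 17.0 FPKM, so neither neighbour shared the pattern. Between these flanks RefSeq lists 6 genes: UBAP2, the only protein-coding gene among them, the small nucleolar RNA genes SNORD121A and SNORD121B, and 3 pseudogenes. No entry of the deposited table was matched to any of these 6. As the entry is a messenger RNA, UBAP2 is its likely gene by position, though the identifier was not matched. The deposited value covers the whole entry, so the fragments behind the 617 FPKM cannot be placed within the 127257-base span.

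Several of the genes act at the cell surface or its membranes. DDR2 (chromosome 1, 162602228 to 162750247, hg19), a receptor tyrosine kinase that binds fibrillar collagen, was at 1.81 FPKM without drug, 2.08 FPKM with drug and 16.5 FPKM after recovery. Its 9.09-fold ratio was the highest among the 19 genes with a symbol (q = 0.322 in the authors' deposited table). Its relative DDR1 was already higher in treated cells, at 8.88, 21.8 and 19.9 FPKM. DDR2 is typical of mesenchymal cells, whose markers DCN, at 0 in all groups, and COL1A1 and COL3A1 were low. The fibrillar collagen COL3A1 stood at 4.10, 2.36 and 7.78 FPKM, and COL1A1 at 1.39, 1.71 and 1.19 FPKM. Any part of such cells in the DDR2 value was not tested.

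ANTXR2, a receptor for extracellular matrix proteins and anthrax toxin, was at 2.01 FPKM without drug, 1.87 FPKM with drug and 6.93 FPKM after recovery, a 3.45-fold ratio. Its relative ANTXR1 also stood higher in recovery, but had a higher value in treated cells too, at 2.28, 6.17 and 11.0 FPKM. ANTXR1 was the 1 gene at 3 times control or more in recovery among the 22 entries of relatives and partners with at least 1 FPKM in control. These relatives were picked after the 20 genes were known.

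CAVIN3, a coat protein of caveolae, the small pits of the plasma membrane, was at 6.20 FPKM without drug, 9.05 FPKM with drug and 27.2 FPKM after recovery. It stood 4.38 times over control in recovery and, with 1.46 times in treated cells, closest to the limit of 1.5. No other caveolar gene measured reached 3 times control in recovery, the nearest being CAVIN2 (0.971, 0.505 and 2.61 FPKM, 2.68 times control). CAVIN1, the coat protein that caveolae require, was high in treated cells alone (23.0, 84.6 and 28.8 FPKM). CAV1, the main caveolin, was lower in recovery (34.8, 24.4 and 17.6 FPKM), and CAV2 stood at 10.2, 7.13 and 16.4 FPKM.

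NRN1, neuritin, a lipid-anchored surface protein that promotes neurite growth, was at 7.23 FPKM without drug, 5.18 FPKM with drug and 22.0 FPKM after recovery. Its 3.05-fold ratio was the lowest that met the rule. A long noncoding RNA locus 11880 bases away (chromosome 6, 5892673 to 5986353) went the other way, at 61.7, 39.4 and 0 FPKM (q = 0.0365 for recovery in the authors' deposited table). TMEM163, a zinc-binding protein of intracellular vesicles, was at 1.31 FPKM without drug, 0.248 FPKM with drug and 5.20 FPKM after recovery. Its treated value was the lowest relative to control of the 20 genes (0.189 times), and recovery stood 20.9 times above treated.

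BST2, or tetherin, an interferon-induced membrane protein that holds budding virus particles on the cell, was at 15.2 FPKM without drug, 17.8 FPKM with drug and 61.7 FPKM after recovery. Recovery was 4.07 times control (q = 0.371 in the authors' deposited table). Of the 23 measured genes of an interferon list, 14 had at least 1 FPKM in control. Of these 14, 2 reached 5 FPKM and 3 times control in recovery, BST2 and OAS3, an antiviral RNA sensor that was also higher in treated cells (2.62, 9.00 and 9.63 FPKM). As many, 2 of the 14, stood at least 3-fold below control in recovery: IFI44L, an interferon-induced gene (2.51, 0.370 and 0.750 FPKM), and USP18, which restrains the interferon response (7.17, 1.37 and 1.55 FPKM). At 2 times control or more in recovery stood 6 of the 14, against 7.29% of all expressed entries; besides BST2 and OAS3 these were IFI6 (16.9, 12.6 and 43.6 FPKM), IFIT1 (3.32, 1.51 and 7.95 FPKM), IFIT2 (1.01, 1.23 and 4.22 FPKM) and the RNA sensor IFIH1 (1.25, 1.48 and 3.01 FPKM). Over the 14 the median log2 ratio to control was 0.66 in recovery and 0.15 in treated cells, against -0.07 for all expressed entries in each. That median leaves out 9 genes under 1 FPKM in control. Among them ISG15 (0.398, 25.9 and 34.2 FPKM) and IFI27 (0.607, 15.6 and 12.2 FPKM) were already higher in treated cells, while IRF9 was not (0.752, 0.285 and 2.31 FPKM). Of all 23, 15 stood above control in treated cells and 18 in recovery. The 23 include OAS1, OAS2 and OASL, which were at 0 in control and cannot fall. The share of all entries above control was not counted, so nothing is read from these counts. The authors' deposited table called 0 of the 23 in recovery in either direction.

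Genomic neighbours of BST2 gave mixed values. MVB12A, an endosomal sorting gene 14455 bases away, was at 5.78 FPKM without drug, 16.4 FPKM with drug and 32.0 FPKM after recovery. A long noncoding RNA locus on the other side (chromosome 19, 17502024 to 17502873, hg19) was listed at 0 in control and treated cells and at 99.8 FPKM in recovery (q = 0.237 in the authors' deposited table). The number of fragments behind that locus was not read, so its high FPKM may rest on few. A noncoding locus 34014 bases from ZKSCAN3 was likewise listed at 0, 0 and 92.2 FPKM. PLVAP, 25611 bases from BST2, was listed at 0 in all groups.

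The next 5 genes encode mitochondrial or metabolic proteins, grouped here by their known roles alone. Lists of respiratory chain and ATP synthase subunits (80 measured), mitochondrial ribosomal proteins (69), mitochondrial import (19) and cholesterol synthesis (19) each held 0 of the 20 genes. HSD17B8, a dehydrogenase of mitochondrial fatty acid synthesis and of sex steroids, was at 3.03 FPKM without drug, 1.06 FPKM with drug and 10.7 FPKM after recovery. As for TMEM163, the treated value lay well under control (0.349 times), and recovery was 10.1 times treated. Its partner subunit CBR4 was at 25.8, 14.1 and 20.1 FPKM, with no higher value in recovery.

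COQ10B, a coenzyme Q-binding protein, was at 2.82, 4.11 and 9.92 FPKM, and its relative COQ10A at 21.4, 14.1 and 17.2 FPKM. GDAP1, a protein of the outer mitochondrial membrane known from inherited neuropathy, was at 3.75, 4.03 and 12.3 FPKM. GLYCTK, glycerate kinase, was at 1.71, 2.21 and 7.44 FPKM. Each of these 3 genes had its high value in recovery, with control and treated values under 1.5 times apart, as the rule requires.

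G0S2, an inhibitor of the fat-cleaving enzyme encoded by PNPLA2, was at 1.46 FPKM without drug, 0.919 FPKM with drug and 7.82 FPKM after recovery (5.37 times control). PNPLA2 itself was highest in treated cells (4.49, 15.9 and 10.1 FPKM).

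In the nucleus, H3C13, which encodes a replication-dependent histone H3 (chromosome 1, 149784780 to 149785236, hg19), was at 31.1 FPKM without drug, 28.4 FPKM with drug and 102 FPKM after recovery. Among 60 replication-dependent histone genes with at least 1 FPKM in control, 14 reached 5 FPKM and 3 times control in recovery. In the other 13 the treated value was also high, at 6.90 times control or more. Among these 14, H3C13 alone met the rule's limit on treated cells. Under the 3-fold line, other histone genes had a like pattern. These included H4C12 (9.63, 7.29 and 25.8 FPKM, 2.68 times control in recovery), H3C11 (39.6, 49.7 and 105 FPKM, 2.65 times) and H2BC8 (659, 950 and 1678 FPKM, 2.55 times). Its close copy H3C15, 38945 bases away, was at 4.23, 2.75 and 8.34 FPKM, and H4C15 between them at 8.54, 2.15 and 1.45 FPKM. Histone H3 copies are nearly identical, so how fragments were shared between them is uncertain. ZKSCAN3, a zinc finger repressor of autophagy genes, was at 1.87 FPKM without drug, 2.33 FPKM with drug and 6.36 FPKM after recovery. It was the 1 gene of the set among 514 measured zinc finger genes. Of the zinc finger genes, 436 had 1 FPKM or more in control, and their median log2 ratio of recovery to control was -0.05.

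CCNO, cyclin O, is needed to build many cilia in airway cells, and CEP15 is a centrosomal protein. A list of 102 measured cilium and dynein genes held 0 of the 20 genes. CCNO was at 1.80, 2.05 and 5.99 FPKM. Its neighbour MCIDAS, a regulator of the same cells 3838 bases away, was listed at 0, 0.883 and 0.746 FPKM. CEP15 was at 5.56, 6.43 and 18.0 FPKM, while PTPRG, 774 bases away, was at 10.5, 9.17 and 7.38 FPKM.

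Of the remaining genes, DGCR6, from the chromosome 22 region deleted in DiGeorge syndrome, was at 11.0 FPKM without drug, 11.3 FPKM with drug and 33.6 FPKM after recovery. Its near copy DGCR6L stood at 23.9, 29.4 and 35.8 FPKM, so the assignment of fragments between them is uncertain. PRODH, 686 bases from DGCR6, was at 5.58, 0.861 and 3.49 FPKM. UFSP1, a protease of the ubiquitin-like modifier UFM1, was at 3.49, 2.11 and 11.8 FPKM. It lies 59 bases from SRRT (34.5, 58.2 and 39.0 FPKM) and 276 bases from ACHE (0, 0.470 and 1.59 FPKM). SH3BGR was at 3.72, 4.57 and 12.1 FPKM, and its relatives SH3BGRL, SH3BGRL2 and SH3BGRL3 were all below control in recovery (0.824, 0.825 and 0.591 times). C19orf81, a gene without an assigned function, was at 1.64, 1.49 and 7.04 FPKM.

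The lowest number of fragments that could lie behind these values was read for 13 of the 20 genes. In the deposited values 1 treated fragment is worth 0.757 and 1 recovery fragment 1.53 control fragments. These are the most frequent ratios, shared by 78 and 93 entries. For each gene the lowest set of whole fragments matching all 3 values was then sought. Multiples of that set would match as well and give narrower intervals, and that 1 step is 1 fragment is an assumption. The largest of these lowest sets were those of BST2, with 67 fragments in control, 104 in treated cells and 178 in recovery, and H3C13 with 43, 52 and 92. The smallest were those of UFSP1 with 5, 4 and 11, C19orf81 with 5, 6 and 14, CCNO with 6, 9 and 13, and G0S2 with 6, 5 and 21. A small set need not mean low coverage. UFSP1, with a span of 996 bases, was at 3.49 FPKM in control on 5 fragments. G0S2, with a span of 1066 bases, was at 1.46 FPKM on 6. The true UFSP1 set may thus be a multiple of the one read. In 5 of the 13 genes the lowest set held fewer than 10 control fragments.

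For BST2 the 95% counting interval of the ratio of recovery to control (exact Clopper-Pearson on the fragments) was 3.06 to 5.48, and that of treated to control 0.856 to 1.62. For UFSP1 the same intervals, on its lowest set, were 1.08 to 12.4 and 0.120 to 2.81, and they would be narrower on a multiple of it. With these lowest sets, the interval's upper end for treated to control reached 1.5 in 10 of the 13 genes and 3 in 4 of them (CAVIN3, C19orf81, CCNO and SH3BGR). If the lowest sets are the true ones, a treated ratio as high as the rule's limit was thus not distinguishable from the measured one in those 10. For TMEM163 (12, 3 and 31 fragments) and HSD17B8 (13, 6 and 30) the interval of treated to control lay below 1, at 0.0343 to 0.701 and 0.109 to 0.985. These intervals cover counting error only, not the spread between cultures, and they take no account of the choice of genes by these ratios.

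**Figure D4:**
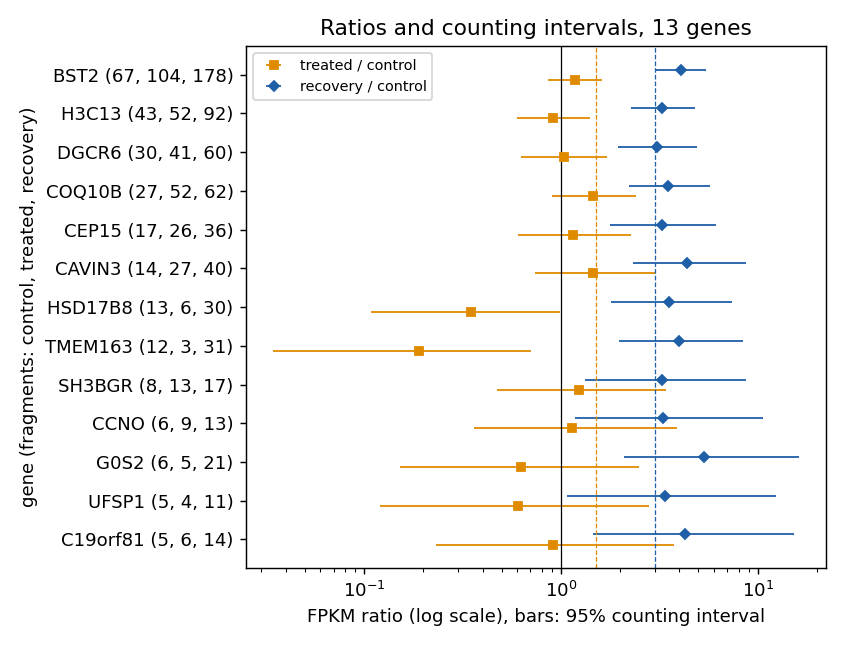
Ratio to control (x axis, log scale) with 95% counting intervals for treated (orange squares) and recovery (blue diamonds) in the 13 genes whose fragments could be read. The lowest matching set of fragments in control, treated and recovery stands beside each name. Lines mark 1, 1.5 and 3; intervals widen from BST2 at the top to the genes with 5 control fragments at the bottom.

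The rule's edges ran through a continuous range of values. Just inside the 3-fold line lay NRN1 (3.05), DGCR6 (3.07), CEP15 (3.25), SH3BGR (3.26) and H3C13 (3.28). Just outside lay CCDC32 (just under 3 times control), MGMT, a DNA repair enzyme whose promoter is often methylated in tumours (2.89; 13.9, 15.8 and 40.3 FPKM), HEMK2 (2.88), FUT8 (2.85) and SPIRE2 (2.82). Between 2.5 and 3 times control lay 31 entries that met the other limits. At the treated limit CAVIN3 and COQ10B (both 1.46 times control) were inside and TM2D1 (1.51) was outside.

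Features that the rule did not use were few. The authors' table marks some entries for DNA methylation, by a procedure not given in the sources used here. Of the 20 genes, 0 carried this mark. For 20 genes drawn at random a count of 0 would allow a share of up to about 15%, but these were chosen by the rule. The mark was on 9.63% of expressed entries and on 10.8% of the 7756 entries within the genes' range of control levels. At a 2-fold line in place of 3-fold, 9.70% of entries carried it. The authors' mark for high expression was likewise on 0 of the 20, against 12.8% of entries in the same range. By its name that mark concerns expression level, which the rule did use. In control, 13 of the 20 genes were under 5 FPKM, so that range is not matched in level and nothing is read from this count. The genes lay on 13 chromosomes, with 0 on X (3.56% of expressed entries), and no 2 of them were neighbours. Their spans, introns included, had a median of 9736 bases, from 457 for H3C13 to 263242 for TMEM163, against 32969 bases for expressed entries.

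Neighbouring genes mostly did not share the pattern. Within 50 kb of 19 of the 20 genes lay 48 other entries, 32 of them at 1 FPKM or more in control, with a median of 1.15 times control in recovery. Of these 32, 4 stood at 3 times control or more in recovery: TWF2 and PPM1M near GLYCTK, SNAR-F near C19orf81, and MVB12A near BST2. Over all expressed messenger RNA entries, 230 of 10433 (2.2%) reached 3 times control and also 5 FPKM, a limit that PPM1M (4.71 FPKM) missed. All 4 neighbours were also at 2.83 times control or more in treated cells. The rule held the genes they adjoin to at most 1.5 times, so that contrast was fixed by the choice of genes. Of the 230 entries, 131 were at 3 times control or more in treated cells. At the other end were SYT3, 9610 bases from C19orf81, which was at 3.49, 2.40 and 0.125 FPKM, and H4C15. No long noncoding RNA locus overlapped any of the 20 genes, and 7 of the genes had 1 or more within 50 kb, 12 loci in all. The locus 11531 bases from DGCR6 (chromosome 22, 18879968 to 18882205, hg19) stood at 34.6, 91.2 and 223 FPKM. Those near GLYCTK and NRN1 that were above 0 in control stood lower in recovery. The fragments behind these noncoding loci were not read either.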

How the data were processed

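RNA from HEK 293T cells was depleted of ribosomal RNA and made into directional libraries, per the labels' protocols. The authors deposited FPKM values, 1 per entry and group with the libraries already combined, q-values (a p-value adjusted for multiple testing) and yes or no calls against control, per the file headers. Cufflinks and Cuffdiff and the builds hg19 and mm9 are named in the submitters' processing notes; the human coordinates are taken as hg19 and printed 1-based. Aligner, annotation release, Cuffdiff settings and library depth are not given in these sources. Entries with shifted cells, 1 RefSeq and 2 lncRNA, were left out. The lncRNA q-values for treated cells were not used.

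The genes, and the lists beside them, were chosen with earlier results of these data known. Symbols came from NCBI's RefSeq gene table (GRCh38.p14), which matched 19665 of 20220 entries and 19 of the 20 genes. Ratios are of deposited FPKM, without a pseudocount. The rule for named genes took the highest ratios, the highest FPKM in recovery and in control, the lowest treated ratios, the authors' calls and the 5 entries on each side of the 3-fold line, and all 20 genes are named so that each is accounted for; neighbours, relatives, entries at the treated limit and list genes shown beside them were named after their values were seen. No test across genes was run.

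Fragments were searched up to 200 in control with a tolerance of 0.0005 fragments in the other groups. The search was tested on simulated data, where a set divided by its common factor counted as found. Whole numbers were given by 26.4% of 10262 expressed entries. Alternatives changed each limit of the rule and the scaling. Python 3.11.15, pandas 2.3.3 and scipy 1.17.1 were used.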

Additional observations from a re-analysis of the deposited data

How the results depend on the processing

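The number of genes follows the limits of the rule. It was 20 as given, 134 with recovery at 2 times control and 7 at 4 times, 8 with treated at most at control and 39 at most at 2 times, 13 and 7 with control at 2 and 5 FPKM or more, and 12 with recovery at 10 FPKM or more. It was 28 with recovery at 1 FPKM or more, 24 with noncoding NR_ entries, 22 after division by the median ratio to control (all 20 genes among them) and 23 after quantile scaling (16 of the 20 among them). The median log2 ratio of recovery to control, 1.80, was 1.54 with a pseudocount of 1, 1.76 with 0.1, 1.84 after median scaling and 1.71 with control at 5 FPKM or more. The median CpG ratio, 0.62, was 0.83 at 2 times control, 0.11 at 4 times (5 windows) and 0.86 with control at 5 FPKM or more. Genes with a lncRNA locus were 1 within 10 kb, 0 overlapping and 7 within 50 kb. The count of authors' calls was 1 at q under 0.05, 0.10 and 0.20. Leaving out each library was not run because values are per group. No paired analysis was possible because the deposited columns carry group values and no replicate.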

Other observations

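Among 580 noncoding RNA entries (NR_ identifiers) with at least 1 FPKM in control, 4 met the same limits. TICAM2-AS1 was at 2.28 FPKM without drug, 0.247 FPKM with drug and 14.5 FPKM after recovery, a 6.35-fold ratio with a treated value far under control, as for TMEM163. The other 3 were divergent transcripts that start beside a coding gene: MIF4GD-DT (1.34, 0.993 and 6.35 FPKM), TMCC1-DT (1.63, 1.19 and 6.11 FPKM) and SRP14-DT (2.48, 3.45 and 8.72 FPKM). Their q-values for recovery in the authors' deposited table ran from 0.844 to 0.948, and that of TICAM2-AS1 was 0.977.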
